A study of Mus musculus with 2 samples.

Results

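The genes of glycolysis and of the hypoxia response form a set of 34 named mouse genes, made up of glucose transporters, glycolytic enzymes, lactate transporters, the regulators of the hypoxia inducible factor (HIF) and its target genes. They were measured in mouse embryonic fibroblasts (MEFs) without Lsh (Lsh-/-) and in wild type MEFs (Lsh+/+), with 1 array for each genotype. Lsh, encoded by Hells, is an SNF2-type helicase that remodels chromatin and that DNA methylation needs in development, and the series was designed to relate Lsh-dependent cytosine methylation to gene expression. Both genotypes were grown in the same medium, DMEM to which antibiotics, 2 mM glutamine and 10% serum of fetal calves had been added. The labels call the cells MEF cell lines. No source used here gives strain, embryonic age, passage or oxygen level, and each genotype stands for 1 line. Values were made by the authors with RMA and are taken here as log2 from their range, and every difference is Lsh-/- minus Lsh+/+.

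Glycolysis splits glucose into pyruvate in the cytosol, and lactate dehydrogenase turns the pyruvate into lactate, which leaves the cell through monocarboxylate transporters. HIF is a dimer whose alpha subunit is hydroxylated on prolines by the Egln enzymes when oxygen is present, and is then destroyed through the von Hippel-Lindau protein. When oxygen is low the alpha subunit persists, binds a short DNA element and raises transcription of most glycolytic enzymes, of Vegfa and of the collagen prolyl hydroxylases. Fibroblasts in culture also use glycolysis with oxygen present.

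Of the 34 genes, 28 matched at least 1 row of the array table, of 16579 genes that did so in all. No row was matched to Gapdh, Pgk1, Pgam1, Eno1, Ldha or Bnip3, which were therefore not analysed here as genes. The gene table names pseudogenes of 4 of these 6 (Gapdh, Pgk1, Pgam1 and Ldha), and of 2 of the 28 with a row (Aldoa and Ldhb). None of the 28 shared its pair of values with another gene. A gene was kept where its value on either array was at or above that array's median over all rows, 3.88 for Lsh-/- and 3.86 for Lsh+/+. This is a limit on dim genes and no detection limit, since no background values were used. By it 26 of the 28 were kept, 25 of them above the limit on both arrays. Epas1 was kept by its Lsh+/+ value alone, and Slc2a3 and Adm were below the limit on both arrays.

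Most of the set was lower in Lsh-/- MEFs than in Lsh+/+ MEFs. Of the 26 kept genes, 22 had a difference below 0, which 48.2% of all 9169 kept genes had. By their measured values 10 of the 26 were at least 2-fold lower: Pfkp, P4ha1, Car9, Ndrg1, Aldoc, Pfkfb3, Pfkl, Slc16a1 and Hk1, which were above the limit on both arrays, and Epas1, whose Lsh-/- value was below it. Against the limit Epas1 was at least 1.40-fold lower, so 2-fold was not reached for it by that bound. Among all kept genes 6.06% were 2-fold lower by measured values. None of the 26 was at least 2-fold higher, against 4.65% of all kept genes. The median difference was -0.73 for the 26 genes and 0.012 for all kept genes. Among genes above the limit on both arrays, 9 of 25 were at least 2-fold lower, against 4.03% of all such genes. With no limit these were 11 of 28, against 3.63% of all measured genes. Neither genotype had a second array, so no p-value exists and these counts describe the 2 arrays, and the spread between cultures or lines is unknown.

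**Figure D1:**
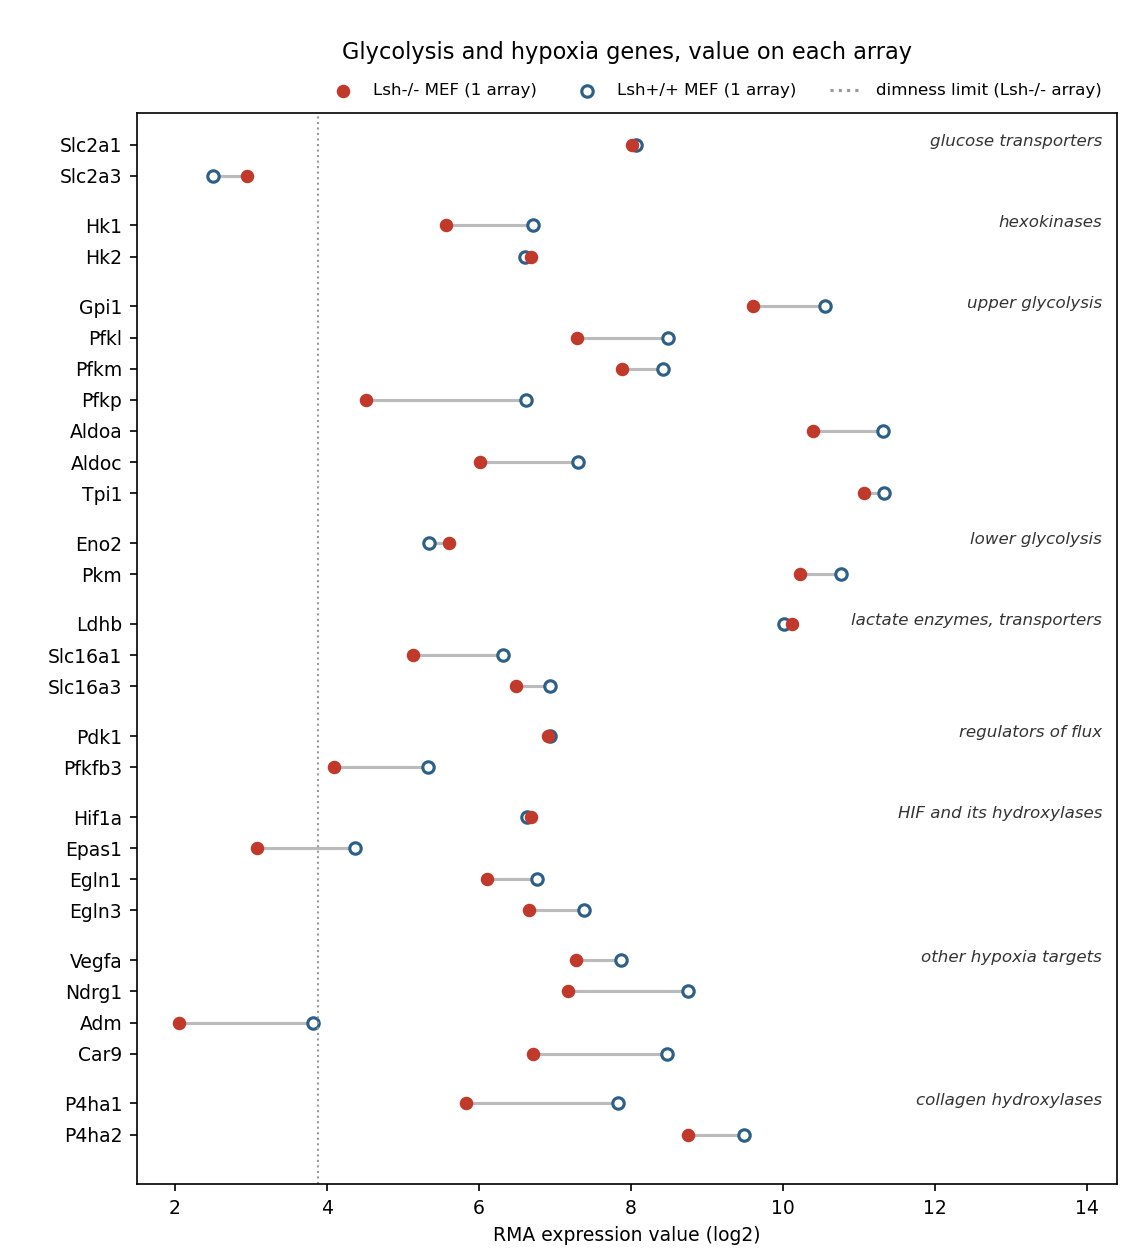
RMA expression values (log2, horizontal axis) of the 28 measured glycolysis and hypoxia genes, grouped by role, with a filled red point for the Lsh-/- array, an open blue point for the Lsh+/+ array and a dotted line at the Lsh-/- dimness limit of 3.88. The red point lies left of the blue one for 23 of the 28 genes.

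**Figure D2:**
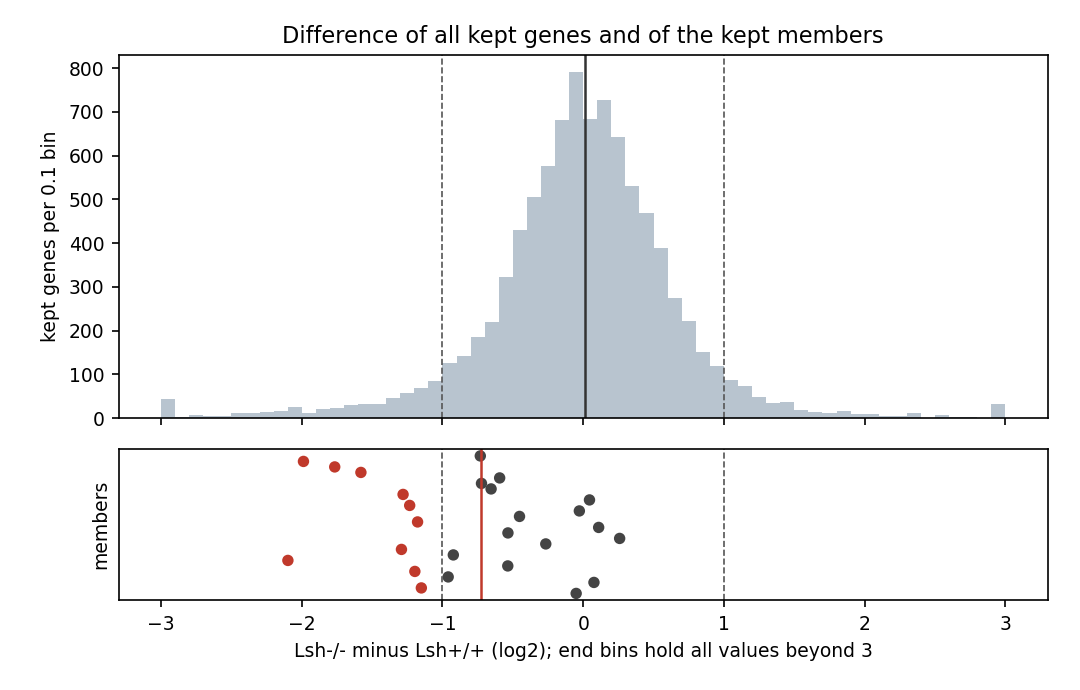
Difference Lsh-/- minus Lsh+/+ (log2, horizontal axis) for all 9169 kept genes (upper panel, genes per bin) and for the 26 kept glycolysis and hypoxia genes (lower panel, 1 point per gene, vertical position without meaning). Dashed lines mark 2-fold, red points are at least 2-fold lower by measured values, Epas1 with a Lsh-/- value under the limit, and solid lines mark the medians, -0.73 for the set and 0.012 for all kept genes.

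The level of the gene removed and the control probe sets bear on every value. Hells read 5.22 in Lsh-/- MEFs and 6.68 in Lsh+/+ MEFs, a difference of -1.46. No source used here says whether its probes lie in the deleted part. The 9 hybridisation controls, RNA meant to be added in equal amount to each array, were higher on the Lsh-/- array by a median of 0.44. Scaled to them, all 26 kept genes of the set were below 0, with a median of -1.16, beside -0.43 for all kept genes. The scaling takes 0.44 from every difference, so genes move below 0 by construction. The exact share of all kept genes below 0 was not counted after it. Their upper quartile before scaling was 0.35, under 0.44, so at least 75% of them also came below 0. After the scaling 16 of the 26 were at least 2-fold lower, beside 14.7% of all kept genes. Directions are therefore relative to the other genes of these arrays. The gap between 3′ and 5′ control probe sets, a sign of RNA integrity, was 3.15 for Actb in Lsh-/- MEFs and 2.56 in Lsh+/+ MEFs. It was 2.84 and 2.14 for Gapdh in that order of genotypes, and 1.52 and 2.11 for 18S ribosomal RNA. The gaps of the mRNAs Actb and Gapdh were thus both wider in Lsh-/- MEFs, and that of the ribosomal RNA was narrower. The gap of the Pcx control, 1.25 and 1.60, was narrower too, but its 5′ probe set was under the limit on both arrays. The part of these gaps in the values of the set was not tested.

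The promoters of the genes farthest apart in either direction are shown because HIF is known to act on its targets through a short DNA element. The core of the hypoxia response element is ACGTG or GCGTG on either strand (CACGT or CACGC when read on the opposite strand). The palindrome CACGTG, which is also an E-box, counts once on each strand. Windows came from RefSeq (GRCm38.p6), run from 250 bases before to 50 bases after a transcription start, and matched 31 of the 34 genes by symbol. The 3 lowest kept genes with a window were Pfkp at chr13:6648722-6649021 on the minus strand, P4ha1 at chr10:59323046-59323345 on the plus strand and Car9 at chr4:43506776-43507075 on the plus strand. The 3 highest were Eno2 at chr6:124769624-124769923 on the minus strand, Ldhb at chr6:142507908-142508207 on the minus strand and Hk2 at chr6:82774405-82774704 on the minus strand. Each is printed 5′ to 3′ on the strand of its gene, with matches to the core in capitals.
Pfkp: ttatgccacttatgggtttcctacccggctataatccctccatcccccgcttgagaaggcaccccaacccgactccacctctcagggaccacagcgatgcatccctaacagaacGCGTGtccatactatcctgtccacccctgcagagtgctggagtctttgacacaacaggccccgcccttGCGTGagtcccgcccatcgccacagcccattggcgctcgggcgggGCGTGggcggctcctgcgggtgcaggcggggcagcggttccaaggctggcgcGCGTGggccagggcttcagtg
P4ha1: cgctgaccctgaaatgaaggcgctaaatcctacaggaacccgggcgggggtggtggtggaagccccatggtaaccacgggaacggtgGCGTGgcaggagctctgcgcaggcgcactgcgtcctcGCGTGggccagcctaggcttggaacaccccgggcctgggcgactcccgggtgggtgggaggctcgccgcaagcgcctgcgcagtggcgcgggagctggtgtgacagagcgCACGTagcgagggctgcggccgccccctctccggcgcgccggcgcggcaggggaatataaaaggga
Car9: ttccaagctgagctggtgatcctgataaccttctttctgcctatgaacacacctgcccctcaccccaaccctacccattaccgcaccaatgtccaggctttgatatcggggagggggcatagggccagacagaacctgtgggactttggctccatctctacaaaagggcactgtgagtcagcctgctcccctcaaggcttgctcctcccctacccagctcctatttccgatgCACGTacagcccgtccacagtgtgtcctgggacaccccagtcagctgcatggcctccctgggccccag
Eno2: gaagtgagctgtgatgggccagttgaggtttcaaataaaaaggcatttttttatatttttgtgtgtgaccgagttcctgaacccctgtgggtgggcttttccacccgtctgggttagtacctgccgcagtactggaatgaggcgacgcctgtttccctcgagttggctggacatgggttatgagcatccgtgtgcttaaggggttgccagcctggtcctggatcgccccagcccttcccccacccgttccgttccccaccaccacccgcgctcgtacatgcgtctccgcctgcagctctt
Ldhb: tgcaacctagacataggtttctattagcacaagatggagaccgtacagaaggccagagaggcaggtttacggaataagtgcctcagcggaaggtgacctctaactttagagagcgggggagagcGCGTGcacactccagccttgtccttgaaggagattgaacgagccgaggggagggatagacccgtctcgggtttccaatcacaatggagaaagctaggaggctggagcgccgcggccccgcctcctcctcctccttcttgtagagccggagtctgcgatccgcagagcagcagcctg
Hk2: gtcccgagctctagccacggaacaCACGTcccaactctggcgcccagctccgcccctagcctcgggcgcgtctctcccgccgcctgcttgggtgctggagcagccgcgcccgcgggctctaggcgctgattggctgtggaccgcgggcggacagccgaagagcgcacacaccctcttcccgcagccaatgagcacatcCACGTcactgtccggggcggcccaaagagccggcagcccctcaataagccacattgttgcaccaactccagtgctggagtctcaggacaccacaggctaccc
Positions count from 1 at the first transcribed base, with no position 0. Pfkp had 4 matches, which begin at -136, -68, -23 and 30. P4ha1 had 3, at -163, -126 and -16, and Car9 had 1, at -18. Eno2 had none, Ldhb had 1, at -126, and Hk2 had 2, at -226 and -52.

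Matches to the core were common in the promoters of the set and of expressed genes in general. Of the 24 kept genes of the set with a window, 21 (87.5%) held the core in at least 1 window, as did 69.6% of 7380 kept genes and 46.7% of all 27025 genes with a window. The core holds a CG dinucleotide. The median number of CG dinucleotides per window was 20.5 for the kept genes of the set, 21 for all kept genes and 7 for all genes. All 8 genes of the set that were at least 2-fold lower and had a window held the core, and so did 13 of the 16 within 2-fold. In all kept genes that were at least 2-fold lower the share was 64.7%. A match describes these letters, and does not show that HIF binds there. Genes with several starts had several chances of a match.

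Glucose enters the cell through the Slc2a transporters and is trapped by hexokinase. Of these 4 genes Hk1 alone was past 2-fold, beside the 6.06% lower among all kept genes. Slc2a1, the widely expressed glucose transporter GLUT1, read 8.01 in Lsh-/- MEFs and 8.06 in Lsh+/+ MEFs, a difference of -0.05. Slc2a3, the high-affinity transporter GLUT3, read 2.95 and 2.50 in Lsh-/- and Lsh+/+ MEFs, below the limit on both arrays, so no fold is given. Hk1, the constitutive hexokinase, read 5.56 in Lsh-/- MEFs and 6.71 in Lsh+/+ MEFs, 2.22-fold lower. Hk2, the isozyme that HIF and insulin induce, read 6.69 in Lsh-/- MEFs and 6.61 in Lsh+/+ MEFs, a difference of 0.08. In this pair the constitutive isozyme was the lower one in Lsh-/- MEFs.

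All 7 measured genes of the upper part of glycolysis were lower in Lsh-/- MEFs, with 3 of them past 2-fold and a median difference of -0.96. Among all kept genes 48.2% were below 0 and 6.06% at least 2-fold lower. The glucose phosphate isomerase Gpi1 read 9.60 in Lsh-/- MEFs and 10.6 in Lsh+/+ MEFs, a difference of -0.96, just within 2-fold. Phosphofructokinase commits sugar to glycolysis and is built from 3 kinds of subunit named for platelet, liver and muscle. The platelet subunit gene Pfkp read 4.52 in Lsh-/- MEFs and 6.62 in Lsh+/+ MEFs. It was 4.28-fold lower, the farthest from 0 among the 26 kept genes of the set. The liver subunit gene Pfkl read 7.30 in Lsh-/- MEFs and 8.49 in Lsh+/+ MEFs (2.29-fold lower), and the muscle subunit gene Pfkm read 7.89 and 8.42 in that order of genotypes (1.45-fold lower). All 3 subunit genes were below 0, and their differences spanned -2.10 to -0.54.

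Aldolase splits the resulting bisphosphate into a pair of triose phosphates. Aldoa, the form of muscle and most cells, read 10.4 in Lsh-/- MEFs and 11.3 in Lsh+/+ MEFs, 1.90-fold lower. Aldoc, the form best known from brain, read 6.02 in Lsh-/- MEFs and 7.31 in Lsh+/+ MEFs, 2.45-fold lower. Tpi1, which interconverts the trioses, read 11.1 in Lsh-/- MEFs and 11.3 in Lsh+/+ MEFs, a difference of -0.27. Both aldolases were lower, while the isomerase was nearer to 0.

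The lower part of glycolysis was measured for only 2 of 6 genes. Pkm, the pyruvate kinase of most tissues, read 10.2 in Lsh-/- MEFs and 10.8 in Lsh+/+ MEFs, 1.45-fold lower. Eno2, the enolase best known from neurons, read 5.61 in Lsh-/- MEFs and 5.35 in Lsh+/+ MEFs, a difference of 0.26 and the highest among the kept genes of the set. Gapdh, the glyceraldehyde phosphate dehydrogenase, had no matched row, but the array carries control probe sets for it. Its 3′ control read 11.9 in Lsh-/- MEFs and 11.8 in Lsh+/+ MEFs, a difference of 0.11. The middle control differed by -0.29, and the 5′ control, at 9.11 in Lsh-/- MEFs and 9.70 in Lsh+/+ MEFs, by -0.59. The direction for Gapdh thus depended on the end of the transcript that was probed, and no direction is given for the gene.

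Lactate handling, with 3 measured genes, and the control of flux, with 2, each held 1 gene past 2-fold. Among all kept genes 6.06% were at least 2-fold lower. Ldhb, the lactate dehydrogenase subunit typical of heart, read 10.1 in Lsh-/- MEFs and 10.0 in Lsh+/+ MEFs, a difference of 0.11. Slc16a1, the monocarboxylate transporter MCT1, read 5.14 in Lsh-/- MEFs and 6.32 in Lsh+/+ MEFs, 2.26-fold lower. Slc16a3, the lactate exporter MCT4 that HIF induces, read 6.49 in Lsh-/- MEFs and 6.94 in Lsh+/+ MEFs, 1.37-fold lower. Both transporters were lower, MCT1 by more.

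Pfkfb3 makes fructose 2,6-bisphosphate, the activator of phosphofructokinase, and Pdk1 holds pyruvate dehydrogenase inactive. Pfkfb3 read 4.10 in Lsh-/- MEFs and 5.33 in Lsh+/+ MEFs, 2.35-fold lower. Its other 7 rows held a single further pair of values, 3.73 in Lsh-/- MEFs and 4.94 in Lsh+/+ MEFs, a difference of -1.21. The gene was dim, so the Lsh-/- value lies close to the limit in one set of rows and under it in the other. Pdk1 read 6.91 in Lsh-/- MEFs and 6.94 in Lsh+/+ MEFs, a difference of -0.03.

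The HIF alpha subunits also differed from each other. Hif1a read 6.68 in Lsh-/- MEFs and 6.64 in Lsh+/+ MEFs, a difference of 0.04. Epas1, which encodes HIF-2 alpha, read 3.09 in Lsh-/- MEFs, below the limit, and 4.37 in Lsh+/+ MEFs. The measured difference was -1.28, at least 1.40-fold lower when set against the limit. HIF alpha is controlled mainly at the level of the protein, which arrays do not measure.

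Both HIF prolyl hydroxylases were lower, within 2-fold. Egln1, the main oxygen sensor of the pathway, read 6.11 in Lsh-/- MEFs and 6.76 in Lsh+/+ MEFs, 1.57-fold lower. Egln3, itself a strong HIF target, read 6.67 in Lsh-/- MEFs and 7.39 in Lsh+/+ MEFs, 1.65-fold lower. The differences, -0.65 and -0.72, lay close together.

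The 3 kept hypoxia targets outside glycolysis were all lower, where 48.2% of all kept genes were below 0. Car9, the cell surface carbonic anhydrase IX and a standard hypoxia marker, read 6.71 in Lsh-/- MEFs and 8.48 in Lsh+/+ MEFs, 3.40-fold lower. The promoter printed above carries its single core match next to the start. Ndrg1, a stress-induced gene that hypoxia raises, read 7.17 in Lsh-/- MEFs and 8.75 in Lsh+/+ MEFs, 2.99-fold lower. Vegfa, the growth factor of blood vessels, read 7.28 in Lsh-/- MEFs and 7.87 in Lsh+/+ MEFs, 1.51-fold lower. A further 3 of its 6 rows held another pair of values, with a difference of -0.67. Adm, the vasodilator peptide adrenomedullin, read 2.06 in Lsh-/- MEFs and 3.82 in Lsh+/+ MEFs, below the limit on both arrays. Its value in Lsh+/+ MEFs lay just under the limit of 3.86.

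P4ha1 and P4ha2 encode the catalytic subunits of collagen prolyl 4-hydroxylase, which stabilises the collagen triple helix, and both are HIF targets. P4ha1 read 5.84 in Lsh-/- MEFs and 7.83 in Lsh+/+ MEFs, 3.97-fold lower. P4ha2 read 8.76 in Lsh-/- MEFs and 9.49 in Lsh+/+ MEFs, 1.66-fold lower. P4hb, the disulfide isomerase that forms the other subunit of the enzyme, differed by 0.04. In the list of 13 measured genes of collagen hydroxylation and crosslinking, all of them kept, 3 were at least 2-fold lower and none higher, with a median difference of -0.53. All 13 were above the limit on both arrays, where 4.03% of all genes were that much lower, and among all kept genes 6.06% were that much lower and 4.65% higher. The 3 were the lysyl oxidase Lox, with a difference of -1.63, the prolyl 3-hydroxylase family member P3h3, with -1.59, and the lysyl hydroxylase Plod2, with -1.24.

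The set was divided between chromosome 6 and the other chromosomes. Of the 5 measured genes above 0, 4 lie on chromosome 6 (Slc2a3, Hk2, Eno2 and Ldhb), and the other was Hif1a on chromosome 12. The 5 measured genes of the set on chromosome 6, which include Tpi1, had a median difference of 0.11, and none was 2-fold lower. The 23 on other chromosomes had a median of -0.96, 22 of them lay below 0 and 11 were at least 2-fold lower by their measured values. These counts include Slc2a3 and Adm, which were below the limit on both arrays. Of the kept genes of the set alone, the 4 on chromosome 6 had a median of 0.09. The 22 elsewhere had -0.94, with 21 below 0 and 10 at least 2-fold lower. The 449 kept genes of chromosome 6 as a whole had a median of 0.28, against 0 for the 8720 kept genes elsewhere. Below 0 were 28.5% and 49.2% of them, and 22 and 534 were at least 2-fold lower. None 2-fold lower among so few genes is thus near the share of chromosome 6. Chromosome 6 was not alone in its median. All kept genes of chromosome 18 had 0.42, and those of chromosomes 11, 1 and 12 had 0.18, 0.17 and 0.17. Genes of the set on chromosome 11 were lower all the same, Aldoc by -1.29, P4ha2 by -0.73 and Slc16a3 by -0.45. On chromosome 12 Egln3 differed by -0.72 and Hif1a by 0.04. With every chromosome's own median taken off, 24 of the 26 kept genes of the set lay below 0, with a median of -0.87. Then 10 were at least 2-fold lower by measured values, beside 6.04% of all kept genes. The values of Hk2, Eno2, Ldhb and Hif1a were then below 0, and those of Slc2a1 and Pdk1 came above it. This division was noticed after the values were seen, and its cause was not tested.

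**Figure D3:**
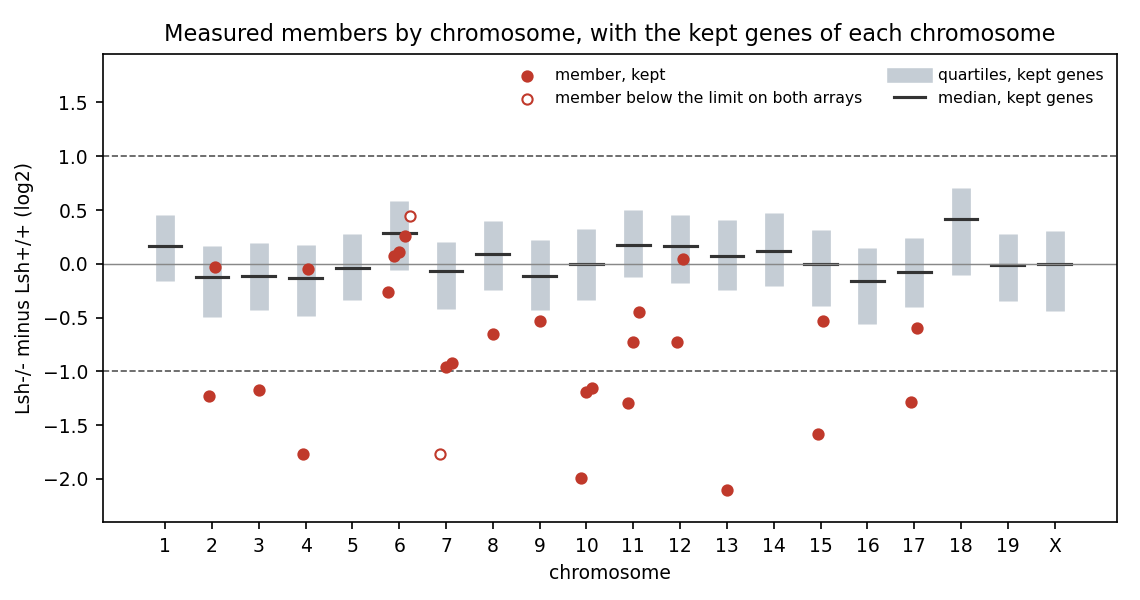
Difference Lsh-/- minus Lsh+/+ (log2, vertical axis) of the 28 measured glycolysis and hypoxia genes by chromosome (horizontal axis), over grey bars for the quartiles and black lines for the medians of all kept genes of each chromosome. Filled points are kept genes, open points are below the limit on both arrays, dashed lines mark 2-fold, and 4 of the 5 points on chromosome 6 lie above 0.

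Of the other genes of the HIF response, some targets were far lower in Lsh-/- MEFs. No kept regulator passed 2-fold, which for so few genes is near the share of all kept genes. Of 32 kept genes in a list of further HIF targets, 11 were at least 2-fold lower by measured values, beside the 6.06% of all kept genes, and 20 were within 2-fold, with a median of -0.38. In 3 of the 11 (Stc2, Prelid2 and Ak4) the Lsh-/- value was under the limit. Above it on both arrays were 27 genes of the list, 8 of them at least 2-fold lower, beside the 4.03% of all such genes. Stc2, the secreted glycoprotein stanniocalcin 2, read 2.67 in Lsh-/- MEFs and 6.24 in Lsh+/+ MEFs, at least 5.13-fold lower over the limit. Prelid2, for which no role is given here, read 3.30 in Lsh-/- MEFs and 6.71 in Lsh+/+ MEFs, at least 7.10-fold lower. Car12, another cell surface carbonic anhydrase, read 5.19 in Lsh-/- MEFs and 8.41 in Lsh+/+ MEFs, 9.33-fold lower. The remaining gene, Selenbp1, went the other way, at 6.55 in Lsh-/- MEFs and 4.42 in Lsh+/+ MEFs, 4.36-fold higher. This list shares 5 genes with the collagen list above (Lox, Loxl2, P4hb, Plod1 and Plod2), so the counts overlap. Like the set and the other lists, it was chosen with earlier results of these data known. Its counts therefore describe these arrays and are no independent support.

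Several familiar HIF targets of the same list were within 2-fold. They were chosen after their values were seen. The stress regulator Ddit4 differed by 0.42, above the upper quartile of all kept genes, 0.35. The histone demethylase Kdm3a differed by 0.27, the mitophagy receptor Bnip3l by -0.30 and the transcription factor Bhlhe40 by -0.04. The endoplasmic oxidase Ero1a, also chosen so, differed by -2.47. The list thus held targets within 2-fold, of either sign, beside targets far below 0.

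None of the 12 kept regulators of HIF passed 2-fold, and their median was 0.24. Among all kept genes 6.06% were at least 2-fold lower and 4.65% higher, so none among 12 is near that share. The coactivator Ep300 was the farthest from 0, at 7.89 in Lsh-/- MEFs and 7.03 in Lsh+/+ MEFs, a difference of 0.85. Vhl, the substrate receptor that marks hydroxylated HIF alpha for destruction, differed by 0.22, Arnt, the partner of HIF alpha, by -0.47, and Egln2, the third Egln hydroxylase, by -0.17.

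In other routes of sugar carbon no kept gene passed 2-fold in either direction, set beside the 6.06% lower and 4.65% higher among all kept genes. Of 25 kept genes of pyruvate entry and the citric acid cycle, none passed 2-fold, 13 lay below 0 and the median was -0.05. The farthest from 0 was Suclg1, a subunit of succinyl-CoA ligase, at 0.81. Of 8 pentose phosphate genes, all kept, none passed 2-fold, and the median was -0.23. Pgd, the 6-phosphogluconate dehydrogenase, differed by 0.75. Of the 2 kept gluconeogenesis genes neither passed 2-fold; G6pc3, a broadly expressed glucose 6-phosphatase, differed by -0.69.

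Of 26 measured further isozymes and regulators of glycolysis, most of them forms of other tissues, 10 were kept. Among these 1 was at least 2-fold lower and none higher, beside 6.06% and 4.65% of all kept genes, with a median of -0.24. It was Pdk4, a pyruvate dehydrogenase kinase induced by fasting and fatty acids, at 1.89 in Lsh-/- MEFs and 5.44 in Lsh+/+ MEFs, at least 2.95-fold lower over the limit. Pdk2 and Pdk3 differed by -0.55 and -0.58, and Pfkfb4, a relative of Pfkfb3 that HIF also induces, by -0.60. Pklr, a pyruvate kinase of liver and red cells, and the testis forms Gapdhs, Pgk2 and Ldhc were dim on both arrays, below the limit.

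**Figure D4:**
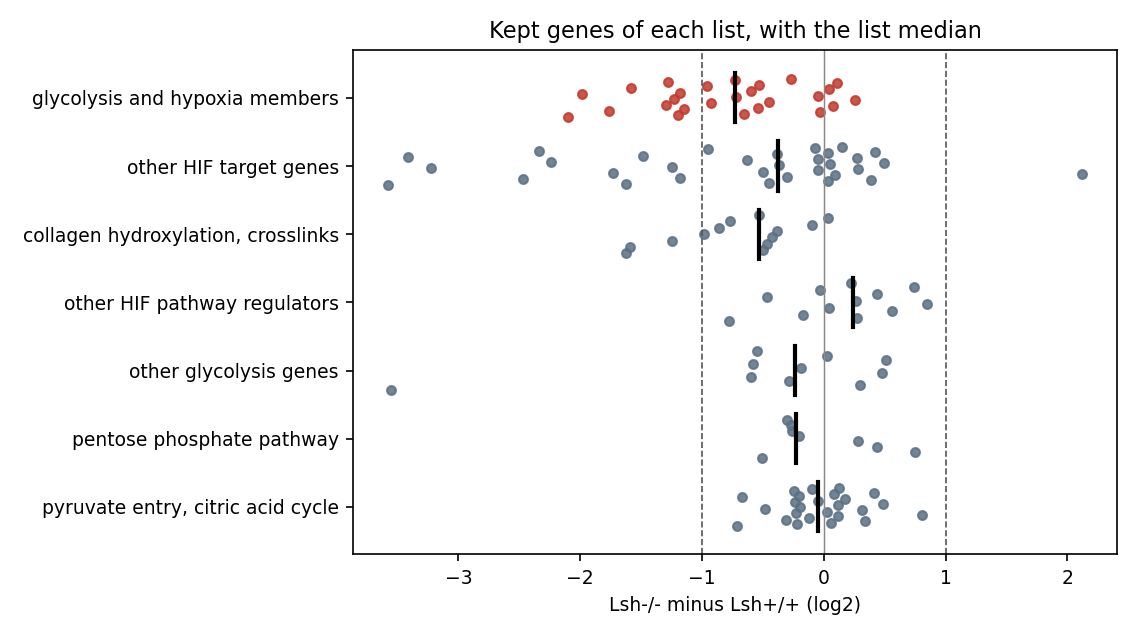
Difference Lsh-/- minus Lsh+/+ (log2, horizontal axis) of the kept genes of the glycolysis and hypoxia set and of 6 further lists, 1 point per gene, with a black bar at each median and dashed lines at 2-fold. The medians are -0.73 for the set, -0.38 for other HIF targets, -0.53 for collagen hydroxylation and crosslinking, 0.24 for HIF regulators, -0.24 for other glycolysis genes, -0.23 for the pentose phosphate pathway and -0.05 for the citric acid cycle.

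Markers of cell identity moved between the same 2 arrays, and in bulk RNA fewer cells of a type and less RNA per cell cannot be told apart. Of 12 fibroblast markers 11 were kept, 5 of them at least 2-fold lower in Lsh-/- MEFs by measured values, beside the 6.06% of all kept genes, and the mean log2 value of the list was 7.97 in Lsh-/- MEFs and 9.23 in Lsh+/+ MEFs. Above the limit on both arrays were 10 of the list, 4 of them at least 2-fold lower, beside 4.03% of all such genes. Of these Col1a2 and S100a4 were farthest apart, with differences of -4.43 and -3.99. Lum, under the limit at 2.69 in Lsh-/- MEFs, was at least 5.43-fold lower. Fn1 and Vim, at -0.03 and -0.09, lay near 0. Col3a1 went the other way, at 10.5 in Lsh-/- MEFs and 9.68 in Lsh+/+ MEFs, a difference of 0.78, and Thy1 was dim on both arrays. Of 9 epithelial markers 4 were kept and 2 were at least 2-fold higher, beside the 4.65% of all kept genes. Krt18 read 8.92 in Lsh-/- MEFs and 2.77, under the limit, in Lsh+/+ MEFs, at least 33.4-fold higher. Krt19 read 10.2 and 7.14 in that order. The other kept epithelial markers, Krt8 and Krt14, were within 2-fold, with differences of 0.24 and 0.46. Above the limit on both arrays were 3 of the list, 1 of them at least 2-fold higher, beside 248 of 8184 such genes in all. The list mean was 4.90 in Lsh-/- MEFs and 3.66 in Lsh+/+ MEFs, while Cdh1 and Epcam, which define epithelia, lay under the limit on each array. The endothelial Kdr and the adipocyte Lpl were 3.52-fold and 3.56-fold higher, while Fabp4, the other kept adipocyte gene, read 4.65 in Lsh-/- MEFs and 5.55 in Lsh+/+ MEFs, a difference of -0.90. The muscle gene Tnnc1 was at least 2.86-fold lower, and Itgb2 of the blood cell list and Ncam1 of the neural list differed by -0.44 and -0.76, while Des of the muscle list and Nes of the neural list differed by -0.26 and 0.04. The defining genes Pecam1, Cdh5, Adipoq, Myod1 and Ptprc were dim on both arrays, below the limit. The list means in Lsh-/- and Lsh+/+ MEFs were 2.77 and 2.47 for endothelial, 3.93 and 3.84 for adipocyte, 2.88 and 3.34 for muscle, 2.77 and 2.94 for blood cell and 3.46 and 3.41 for neural markers. None of these markers is a gene of the set, and their part in its differences was not tested.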

How the data were processed

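Total RNA of 1 Lsh-/- and 1 Lsh+/+ MEF line was extracted with Trizol and hybridised to Affymetrix Mouse Genome 430 2.0 arrays, per the labels' protocols. The authors made the expression values with RMA, per the submitters' processing notes; RMA in general corrects background, normalizes by quantiles and summarises probes by median polish. No source used here gives the RMA version or the grouping of probes. No label states the scale of the deposited values, which was taken as log2 from their range, 0.89 to 13.1.

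Of 23886 transcript rows, 21230 matched 1 gene by unversioned RefSeq accession (GRCm38.p6 gene table), and 64 further rows were controls. Where a gene had several rows, the one with the highest mean over both arrays was used. Genes were kept where either value reached the median of all rows on its array; an "at least" fold sets the brighter value against that limit where the dimmer one is under it. With 1 array per genotype no test was possible, and genes were counted at 2-fold.

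All genes of the set, Hells, and of each further list up to 3 genes a direction past 2-fold (otherwise the kept gene farthest from 0) were to be named. Further genes named in the HIF, glycolysis and marker lists were chosen after their values were seen. The members, lists, rules and alternatives were chosen with earlier results of these data known. The counting code was run on simulated differences with shifts set well past the threshold and small noise. That checks the code alone, and not the spread between cultures or lines, which is unknown. Python 3.11.15, numpy 2.4.6, pandas 2.3.3 and statsmodels 0.14.6 were used.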

Additional observations from a re-analysis of the deposited data

How the results depend on the processing

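No paired analysis was possible because neither genotype had a second array, which also leaves no replicate to omit. The 10 kept genes of the set at least 2-fold lower by measured values became 5 after 32 was added to each linear value (2.09% of all kept genes). This took Hk1, Aldoc, Slc16a1, Pfkfb3 and Epas1 within 2-fold. By construction it shrinks every difference, and those of dimmer genes more. Not all of these genes were dim: Aldoc, above the upper quartile of all rows on both arrays, came to -0.98. The count became 16 with the Lsh-/- array scaled to the hybridisation controls (14.7% of all kept genes), where the median was -1.16. It was 16 at a threshold of 1.5-fold (13.8% of all kept genes) and 3 at 3-fold (2.62%). The count stayed between 8 and 11, and the median between -0.87 and -0.67, in the other alternatives. These were the mean over rows, no limit, quantile normalization, loess, an upper-quartile limit, chromosome medians subtracted, and genes of shared values left out. It was 8 of 23 with the upper-quartile limit, beside 6.36% of all genes so kept, and 11 of 28 with no limit, beside 3.63%. In the rest of them it was 10 of 26, beside 5.90% to 6.33% of all kept genes. None of the kept genes of the set was at least 2-fold higher under any of these alternatives, and none at least 2-fold lower turned positive. Signs near 0 were less firm: that of Slc2a1 turned with quantile normalization, and those of Hk2, Eno2, Ldhb and Hif1a with the scaling to the controls. Signal over background was not known, which limits the dim genes Pfkfb3, Epas1, Adm and Slc2a3 most.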
